A study of Mus musculus with 3 samples.

Results

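Genes of cholesterol synthesis and targets of the transcription factor SREBP2 were followed in cultures of the murine macrophage line RAW264.7 at 0, 2 and 12 h of lipopolysaccharide (LPS), the bacterial outer membrane component sensed by Toll-like receptor 4. The set comprised the enzyme genes Hmgcs1, Idi1, Fdft1, Sqle, Cyp51 and Sc5d and the regulator genes Srebf2 and Insig1. Its members were all probe sets annotated to 1 of these 8 genes and to no other gene. They numbered 18 of 20380 named probe sets and covered 7 of the 8 genes, out of 12393 named genes. No probe set was named for Insig1 in the platform annotation used here, so Insig1 was not analysed here.

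Cholesterol is built from acetyl-CoA through mevalonate, isoprenoid diphosphates, squalene and lanosterol. The transcription factor SREBP2 is made as a precursor in the endoplasmic reticulum membrane, where SCAP escorts it and INSIG proteins hold it back when sterols are plentiful; when sterols are scarce it is cut in the Golgi and its released fragment switches on the enzymes of the pathway, genes of sterol uptake and its own gene. In macrophages the pathway stands opposite sterol efflux, which oxysterol-activated LXR receptors promote.

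Each time was read on 1 array, so there was no replicate, no test and no p-value, and the design holds no untreated array at 2 or 12 h. Time in culture and LPS therefore cannot be told apart. Neither the LPS dose nor the passage of the line is stated in the labels. Values are linear signals scaled to one trimmed mean per array, and a signal under a floor of 34.96 was set to the floor. A gene under it on both arrays of a comparison was not measured. Under it on 1 array, a gene gave a bound and was counted as measured. A gene is called higher or lower at a 2-fold difference. The one error these arrays offer is how far probe sets of the same gene disagree: the SD of their log2 differences was 0.32 between 0 and 2 h, 0.34 between 0 and 12 h and 0.31 between 2 and 12 h. It does not include the spread between cultures. In RNA from a whole culture, fewer cells of a kind and less RNA per cell cannot be told apart.

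The arrays carried macrophage RNA. All 10 listed macrophage markers were above the floor at every time, with a summed signal of 20187 at 0 h, 20718 at 2 h and 23005 at 12 h. The part of that increase in the results below was not tested. None of 5 T cell markers reached the floor at any time. Of 3 B cell markers, 1 did so at 12 h (Ms4a1). At each time 1 of 5 fibroblast markers (Col1a2) and 1 of 4 epithelial markers (Krt8) were above it, and 1 of 3 hepatocyte markers (Alb) was above it at 0 h. Tnf, a cytokine gene induced through Toll-like receptor 4, had signals of 184 at 0 h, 3346 at 2 h and 1343 at 12 h.

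At 2 h of LPS, Hmgcs1, Sc5d and Cyp51 were at least 2-fold higher than before treatment, and at 12 h no member was 2-fold away from its 0 h signal. Hmgcs1 was 2.44-fold, Sc5d 2.27-fold and Cyp51 2.06-fold higher at 2 h. Srebf2 was 1.33-fold higher, and Idi1, Fdft1 and Sqle were between 1.14-fold and 1.16-fold higher. By the brightest probe set, all 7 measured members had their highest signal at 2 h, and all 7 stood lower at 12 h than at 2 h.

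**Figure D1:**
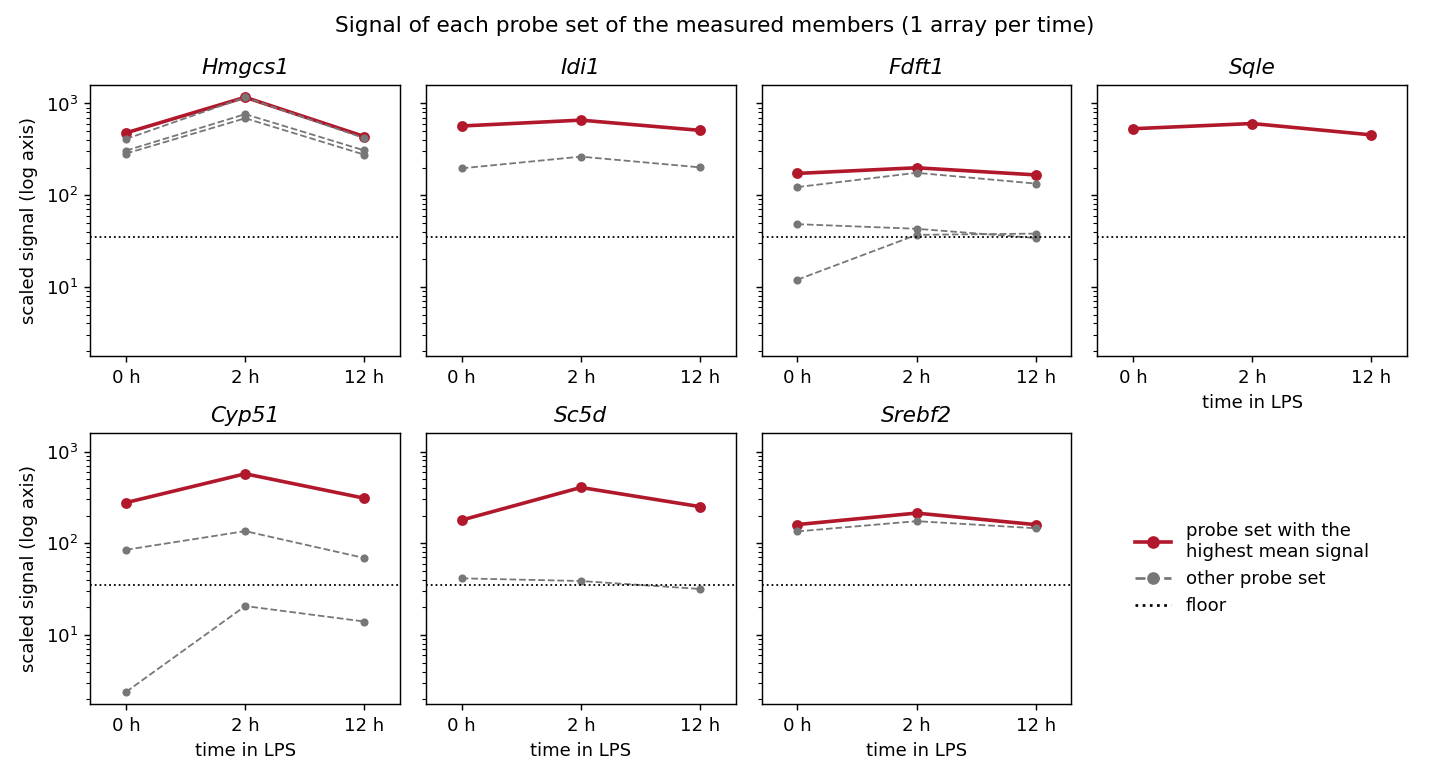
Scaled signal (log axis) of each of the 18 member probe sets at 0, 2 and 12 h of LPS, 1 array per time, with the brightest probe set of each gene as a solid red line, the others as dashed grey lines and the floor of 34.96 as a dotted line. All 4 Hmgcs1 probe sets peak at 2 h, whereas the dimmer probe set of Sc5d and the dimmest of Fdft1 and Cyp51 lie near or under the floor.

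Hmgcs1 encodes the cytosolic HMG-CoA synthase, an early enzyme of the mevalonate pathway, and it was read by 4 probe sets. The brightest, 1433445_x_at, had signals of 478 at 0 h, 1169 at 2 h and 436 at 12 h. Probe set 1433443_a_at had signals of 410, 1166 and 418 at the same times, 1433444_at had 306, 765 and 307, and 1433446_at had 284, 690 and 276. In each of the 4 the 2 h array stood apart, and the 0 h and 12 h arrays were within 1.10-fold of each other. The log2 difference of 2 h from 0 h was 1.35 ± 0.11 (SD, n = 4 probe sets on the same arrays). It ranged from 2.43-fold to 2.84-fold. From 2 h to 12 h the log2 difference was -1.38 ± 0.08 (SD over the same 4 probe sets), and from 0 h to 12 h it was -0.04 ± 0.07. These probe sets carry one accession in the annotation and share their RNA, so their small SD measures probe noise and no more. Of all measured genes, 1.40% had a difference at 2 h as high as that of the brightest Hmgcs1 probe set, and 0.791% had one as low between 12 h and 2 h.

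Idi1 encodes isopentenyl diphosphate isomerase, which supplies the isoprenoid building blocks. Its brighter probe set had signals of 568 at 0 h, 658 at 2 h and 509 at 12 h, while the other had 197, 263 and 201. The 2 h array was the highest on both, by a log2 difference of 0.21 and 0.42 from 0 h, so one value lay within the SD of 0.32 between probe sets and the other above it. A difference as high as that of the brighter probe set was found in 19.0% of all measured genes.

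Fdft1 encodes squalene synthase, the first enzyme committed to sterols, and its 4 probe sets did not give one answer. The brightest had signals of 173 at 0 h, 199 at 2 h and 167 at 12 h. The next had 123, 175 and 134, a log2 difference at 2 h of 0.52 against 0.20 for the brightest. Another had signals of 48.4, 43.1 and 34.2, which was slightly lower at 2 h, and the dimmest had 12, 37 and 38.2, under the floor at 0 h. On the pair of probe sets above the floor throughout, 2 h was the highest array. Over the 3 probe sets above the floor at both 0 and 2 h, the log2 difference was 0.18 ± 0.34 (SD), which spans 0.

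Sqle encodes squalene epoxidase, a rate-controlling step after squalene. Its single probe set had signals of 531 at 0 h, 605 at 2 h and 455 at 12 h. The log2 difference was 0.19 at 2 h and -0.22 at 12 h against 0 h, both within the SD between probe sets, and between 12 h and 2 h it was -0.41. Differences as high as that at 2 h were found in 20.4% of measured genes.

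Cyp51 encodes the demethylase that acts on lanosterol. Its brightest probe set had signals of 277 at 0 h, 572 at 2 h and 310 at 12 h, while a second had 84.9, 136 and 69. Both were highest at 2 h, 2.06-fold and 1.60-fold over 0 h, and both were lower at 12 h than at 2 h, by 1.85-fold and 1.97-fold. The dimmest had 2.4, 20.7 and 14, under the floor on each array, and gives no difference. Taking the median of the probe sets above the floor gave a log2 difference at 2 h of 0.86, and replacing the floor by a pseudocount also left it under 2-fold, at 0.96. At 12 h the probe sets above the floor lay on either side of the 0 h level, with log2 differences of 0.16 and -0.30.

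Sc5d encodes a sterol desaturase near the end of the pathway. Its brighter probe set had signals of 179 at 0 h, 406 at 2 h and 251 at 12 h, so that the 12 h array kept a log2 difference of 0.49 from 0 h, the largest among the members and above the SD between probe sets of 0.34. The other probe set had signals of 41.5, 38.8 and 31.8. It was close to the floor on each array and showed no increase at 2 h. The call for Sc5d therefore rests on 1 probe set, and by the median over both the log2 difference was 0.54 at 2 h and 0.12 at 12 h.

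Srebf2 encodes SREBP2 itself, whose gene is among its own targets. The brighter of its 2 probe sets had signals of 160 at 0 h, 213 at 2 h and 160 at 12 h, while the other had 135, 174 and 146. The log2 difference at 2 h was 0.39 ± 0.03 (SD, n = 2 probe sets), and at 12 h it was 0.06 ± 0.08. The 2 h value was under 2-fold on both probe sets, and 9.18% of measured genes had one as high as the brighter probe set.

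Set against all genes, 3 of 7 members were at least 2-fold higher at 2 h, where 2.09% of 8422 measured genes were. No member was 2-fold lower, where 1.69% of genes were, or 1.5-fold lower, where 9.64% were. At 12 h against 0 h no member passed 2-fold in either direction, with 3.01% of 8629 genes higher and 2.4% lower. None passed 1.5-fold either, with 8.32% of genes higher and 10.3% lower by that size. At 12 h against 2 h, 1 member, Hmgcs1, was 2-fold lower, where 1.98% of 8467 genes were. At 1.5-fold, Cyp51 and Sc5d joined it, making 3 of 7 members lower, against 6.45% of genes. None was higher at 12 h than at 2 h by any amount, where 55.7% of genes were; 2.65% of genes were 2-fold higher and 10.2% were 1.5-fold higher. The members were named with earlier results of these arrays known, so these counts describe the set and do not test it.

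**Figure D2:**
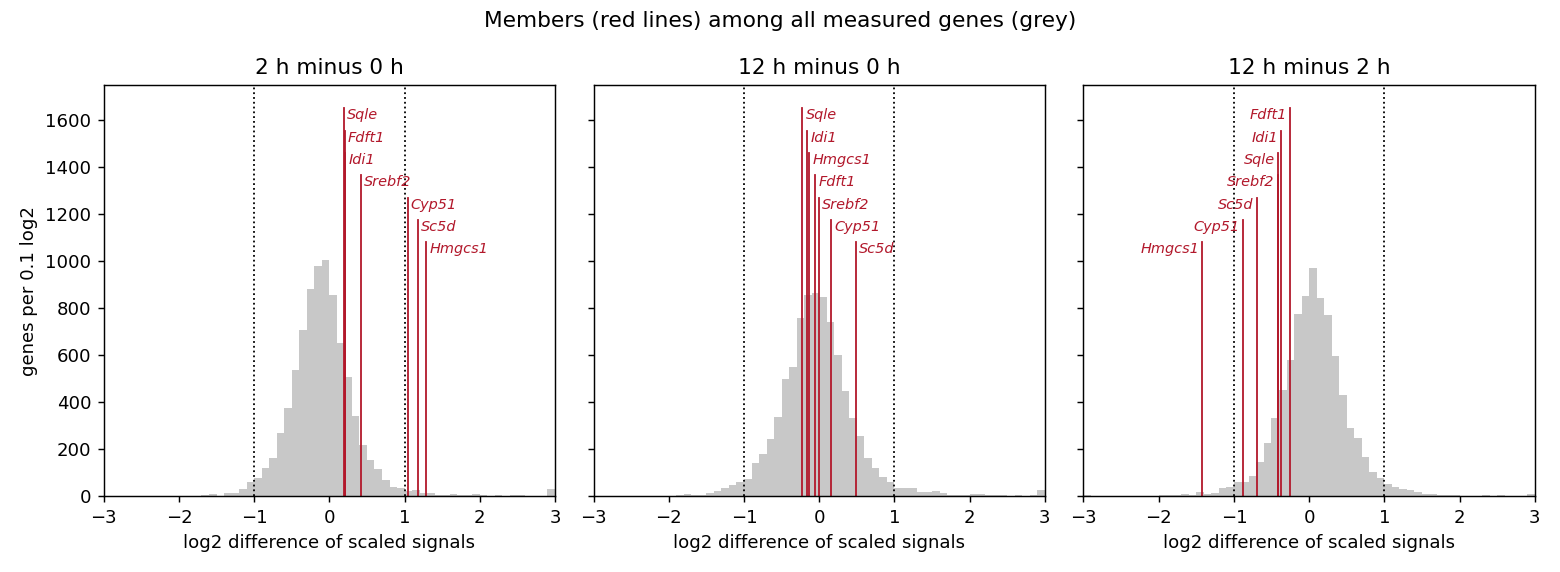
Log2 difference of scaled signals for all measured genes (grey, genes per 0.1 log2, values beyond 3 placed in the end bins) and for the 7 members by their brightest probe set (red lines), in the 3 comparisons of times; dotted lines mark 2-fold. At 2 h against 0 h the members lie between 0.19 and 1.29, at 12 h against 0 h between -0.22 and 0.49, and at 12 h against 2 h between -1.42 and -0.26.

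The shared feature was the order of the arrays rather than the size. Of the 18 member probe sets, 14 were above the floor on all 3 arrays, and all 14 were highest at 2 h. Among 11250 named probe sets above the floor on all arrays, 24.6% were highest at 2 h. With the dimmer probe sets counted too, 15 of the 18 member probe sets were highest at 2 h. Of the 14, 4 read the same gene, Hmgcs1. By the brightest probe set the count was 7 of 7 members, where 23.2% of 7318 genes had that order. For Idi1, Fdft1 and Sqle the 2 h difference from 0 h, 0.19 to 0.21, was within the SD between probe sets of 0.32. The median log2 difference over members was 0.42 at 2 h, against -0.10 over all measured genes, which put the members 0.52 above it. At 12 h the median was -0.05 over members and -0.05 over all genes. Between 12 h and 2 h it was -0.42 over members and 0.05 over all genes. The 2 h array enters both differences, so a high 2 h reading is seen in each.

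Within the set the sizes at 2 h fell into a higher trio, with log2 differences of 1.04 to 1.29, and the rest, at 0.19 to 0.42. Dimmer probe sets of the same genes lay in the gap between them: the second Cyp51 probe set stood at 0.68 and the second Fdft1 probe set at 0.52. Without Hmgcs1, Cyp51 and Sc5d, the remaining 4 members had a median of 0.21 at 2 h and -0.39 at 12 h against 2 h. The trio catalyses steps in different stretches of the pathway, one before mevalonate and the others from lanosterol onward, while Idi1, Fdft1 and Sqle lie between them.

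The scaling of the arrays bears on small differences. Scaling to one median in place of one trimmed mean moved the median of all measured genes at 2 h from -0.10 to 0.03 on the log2 scale. The order of the members did not turn with it: in each of 8 alternatives of scaling, floor and choice of probe set, all 7 members were above their 0 h level at 2 h and below their 2 h level at 12 h. At 12 h against 0 h, by contrast, Sc5d was above 0 and Idi1 and Sqle below it in all 8, while the signs of Hmgcs1, Fdft1, Cyp51 and Srebf2 turned in at least 1. Not all 8 could turn a sign. The brightest probe set of each member lay above the other floors too, and a pseudocount keeps the sign of a difference. Leaving out suffixed probe sets left every member but Hmgcs1 on the same probe set. Leaving out the rescaling could hardly turn one, as the deposited trimmed means were already equal.

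Among the 21 listed enzymes from acetyl-CoA to cholesterol, 18 had a named probe set. The other listed enzymes were not analysed here. Of the 18, 14 were above their 0 h level at 2 h, where 37.6% of measured genes were, and their median log2 difference was 0.22. The 12 enzymes that are not members had a median of 0.20 and 8 of them were above 0; none was 2-fold higher. Msmo1, the methylsterol oxidase gene that acts shortly after Cyp51, had signals of 558 at 0 h, 874 at 2 h and 702 at 12 h. It was 1.57-fold higher at 2 h and the one enzyme outside the set past 1.5-fold, a size that 5.6% of genes reached; the pseudocount left it just short of that, at a log2 difference of 0.58. Fdps, the farnesyl diphosphate synthase gene, had signals of 1452, 1967 and 1740, and Hsd17b7 had 243, 310 and 232. Of the 17 enzymes above the floor on all arrays, 12 were highest at 2 h, and of the 11 that are not members, 6 were. Among all genes above the floor on all arrays, 23.2% had that order.

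**Figure D3:**
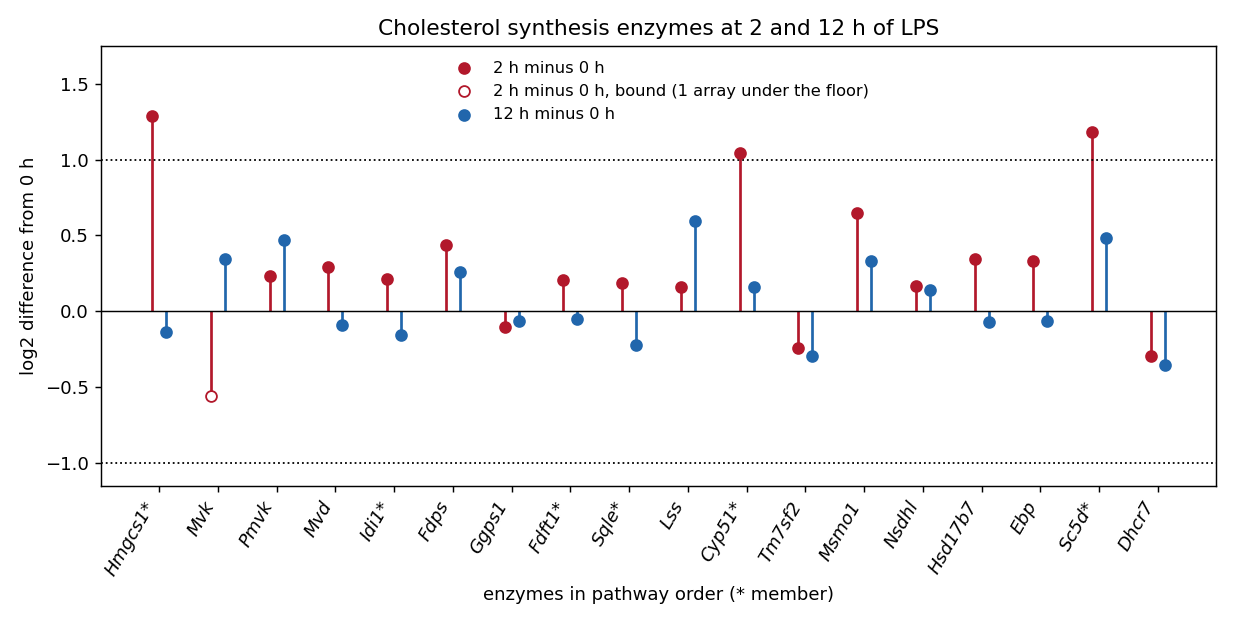
Log2 difference from 0 h at 2 h (red) and 12 h (blue) of LPS for the 18 cholesterol synthesis enzymes with a named probe set, placed in approximate pathway order, with members starred and dotted lines at 2-fold; an open circle marks a bound. Hmgcs1, Cyp51 and Sc5d pass 2-fold at 2 h, and at 12 h the values lie between -0.35 and 0.60.

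Some enzymes went against that order. Dhcr7, the reductase gene of the last step, had signals of 101 at 0 h, 82 at 2 h and 78.9 at 12 h, while Tm7sf2, a sterol reductase gene, had 94, 79.3 and 76.6. Both were highest before treatment. Their log2 differences at 2 h, -0.30 for Dhcr7 and -0.24 for Tm7sf2, were within the SD between probe sets of 0.32. With median scaling they were -0.15 and -0.10. Mvk, the mevalonate kinase gene, had signals of 51.6, 10.1 and 65.4 on its brighter probe set. The 2 h signal was under the floor, so that by this probe set Mvk was at least 1.47-fold lower at 2 h. Its other probe set was above the floor at 2 h alone, and the median over both gave a log2 difference of -0.20. Lss, the lanosterol synthase gene, was highest at 12 h, with signals of 160, 178 and 241, 1.51-fold over 0 h; without suffixed probe sets the log2 difference at 12 h was 0.46 in place of 0.60. At 12 h the median over the 18 enzymes was -0.06, with 8 above 0 (45.3% of all measured genes); it turned positive with quantile normalization, at 0.02, and with the median over probe sets, at 0.06.

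The other SREBP gene, Srebf1, and the measured genes of SREBP processing did not share the members' order. Srebf1, the gene of the related factor SREBP1, had signals of 310 at 0 h, 258 at 2 h and 315 at 12 h. Scap, the gene of the SREBP escort protein, had 169, 136 and 125. Insig2 had 139, 124 and 135, and Mbtps1, the gene of the protease that makes the first cut in SREBP, had 361, 300.1 and 291. By these probe sets all 4 were lower at 2 h than at 0 h, with log2 differences of -0.17 to -0.32. The largest, for Scap, was about equal to the SD between probe sets of 0.32, and the others were within it. Of the 8 listed genes of SREBP processing and sterol uptake that were measured, Srebf2 included, 2 were above 0 at 2 h. Among all measured genes 37.6% were. The list median was -0.13, beside -0.10 for all genes, or 0.01 with median scaling, beside 0.03. Of the list 25.0% were highest at 2 h, where 23.2% of genes were, so the list stood near all genes. The other genes of that list were not analysed here.

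The other of those above 0 at 2 h was Stard4, which encodes a sterol carrier protein and is a known SREBP2 target. Its brighter probe set had signals of 233 at 0 h, 298 at 2 h and 163 at 12 h; between the later times it was 1.82-fold lower. Npc2 and Npc1, which encode the lysosomal cholesterol exporters, were highest at 12 h instead. Npc2 had signals of 1961, 1944 and 3836, 1.96-fold over 0 h, and Npc1 had 51.1, 47.9 and 77.9, 1.53-fold over it, a log2 difference of 0.61 that the pseudocount reduced to 0.40.

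Fatty acid synthesis genes, which depend mainly on SREBP1, stood lower than the cholesterol genes at 2 h. Of 12 measured, 3 were above 0, where 37.6% of all measured genes were. The median was -0.33, against 0.22 for the cholesterol enzymes and -0.10 for all genes. With the median over probe sets the fatty acid median was -0.07, against -0.11 for all genes, so that it no longer stood below them; at 12 h it was -0.04 in place of -0.25. Fasn, the fatty acid synthase gene, had signals of 480 at 0 h, 511 at 2 h and 478 at 12 h. At 12 h the desaturase genes Scd2, Fads1 and Fads2 were 1.70-fold, 1.58-fold and 1.5-fold lower than at 0 h, and no gene of the list passed 2-fold at either time. Between 2 h and 12 h Fads2 was 1.84-fold lower, while Acaca and Acss2 were more than 1.5-fold higher. Their log2 differences were 0.61 and 0.59, which a floor at the 60th percentile reduced to 0.06 and 0.26. Of the 12 measured genes, 7 were higher at 12 h than at 2 h. The list median between these times was 0.10, beside 0.05 for all genes, and its lowest value over the 8 alternatives was -0.08. Lpin1 was under the floor on all arrays.

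Genes of oxysterol handling and sterol efflux showed other orders. Cyp27a1, which encodes a sterol hydroxylase, had signals of 109 at 0 h, 48.5 at 2 h and 51.6 at 12 h, 2.25-fold and 2.12-fold lower than at 0 h; a floor at the 60th percentile reduced this to a log2 difference of -0.37 at both times. Abca1, the cholesterol exporter gene, had signals of 63.2, 79.9 and 142 and was 2.25-fold higher at 12 h by its brightest probe set; the median over all of them gave a log2 difference of 0.72. Abcg1, another exporter gene, had 94.8, 55 and 102, 1.72-fold lower at 2 h; the floor at the 60th percentile reduced the log2 difference from -0.79 to -0.16. Mylip, which encodes a ubiquitin ligase induced by LXR, had 150.1, 176 and 85.8, and was 2.05-fold lower at 12 h than at 2 h; the pseudocount left it under 2-fold, at a log2 difference of -0.82. Ch25h, which encodes a cholesterol hydroxylase, had 57.2, 35.2 and 31.4, and was 1.63-fold lower at 2 h; the pseudocount reduced the log2 difference from -0.70 to -0.41. Of the 6 measured genes of this list, 3 were above 0 at each time, where 37.6% of all measured genes were at 2 h and 45.3% at 12 h. Apoe was under the floor on all arrays, and no probe set was named for Nr1h2 or Soat1.

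**Figure D4:**
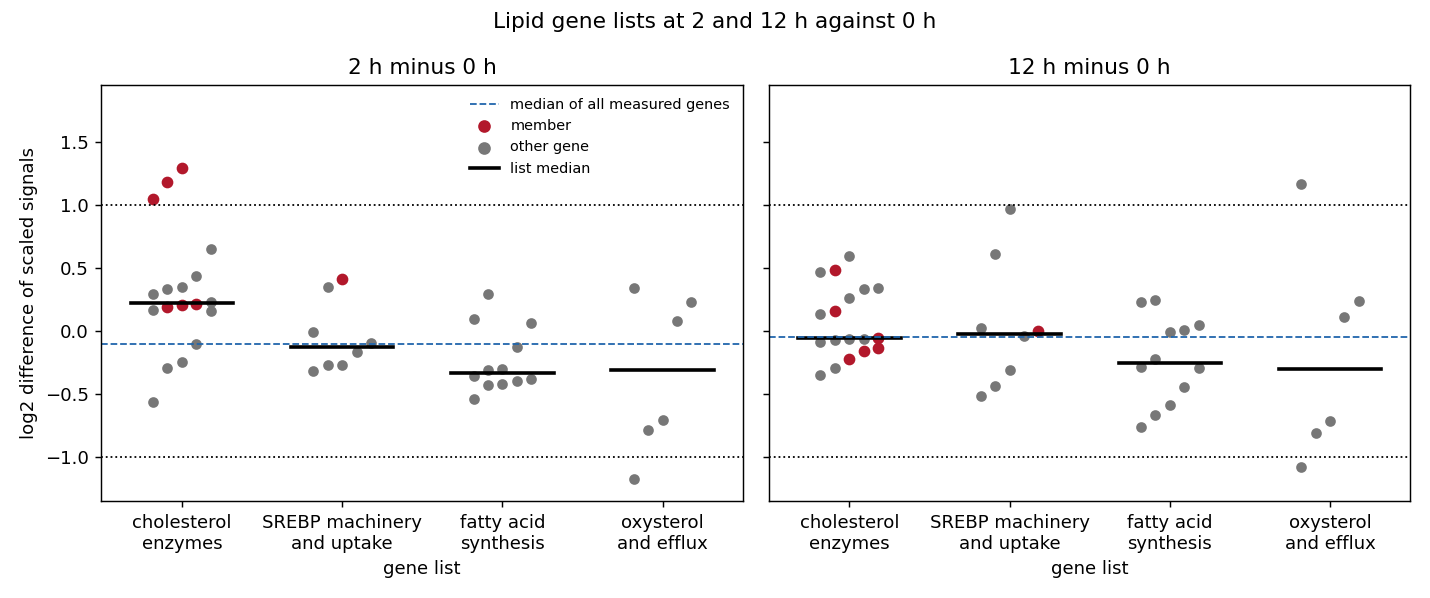
Log2 difference from 0 h at 2 h (left) and 12 h (right) for the measured genes of 4 lipid gene lists, with members in red, other genes in grey, the list median as a black bar, the median of all measured genes as a dashed blue line and 2-fold as dotted lines. At 2 h the cholesterol enzymes have a median of 0.22 and the fatty acid genes one of -0.33; at 12 h the medians are -0.06 and -0.25.

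The genes most like Hmgcs1 over the 3 arrays came from outside lipid metabolism. Likeness was the distance in the plane of the 2 log2 differences from 0 h, over 7311 non-member genes above the floor on all arrays. The 5 nearest were Jag1 at 0.02, Swap70 at 0.07, Nupr1 at 0.10, Nab2 at 0.19 and Nlrp3 at 0.20. Nlrp3, an inflammasome sensor gene, had signals of 270 at 0 h, 599 at 2 h and 271 at 12 h, while Nab2, a corepressor gene, had 184, 434 and 147. Cyp51 lay at a distance of 0.38, with 19 non-member genes nearer, and Sc5d at 0.63, with 78 nearer. The other 4 members lay between 0.88 and 1.10 away. With 3 arrays the measure rests on 2 differences and says nothing of shared control.

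The sequence before the start site is shown for the trio that passed 2-fold and, for comparison, for Srebf2 and Idi1, which did not. RefSeq promoter windows of assembly GRCm38.p6, 250 bases before to 50 after the start, were held for 6 members; Fdft1 and Sqle were not among them. The 250 bases upstream are printed 5′ to 3′ on the gene's strand. They lie at chr13:119690101-119690350 (+ strand) for Hmgcs1, chr5:4104698-4104947 (- strand) for Cyp51, chr9:42264301-42264550 (- strand) for Sc5d, chr15:82147019-82147268 (+ strand) for Srebf2 and chr13:8885356-8885605 (+ strand) for Idi1. Capitals mark TCACNCCAC, the core of the sterol regulatory element, its shorter form TCACNCCA, the box CCAAT, which reads ATTGG on the other strand, and the E-box CACGTG.
Hmgcs1: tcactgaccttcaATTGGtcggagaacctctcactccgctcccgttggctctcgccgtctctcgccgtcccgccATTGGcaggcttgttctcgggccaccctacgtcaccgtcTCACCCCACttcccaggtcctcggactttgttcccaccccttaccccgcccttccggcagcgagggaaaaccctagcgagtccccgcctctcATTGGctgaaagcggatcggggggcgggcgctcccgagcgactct
Cyp51: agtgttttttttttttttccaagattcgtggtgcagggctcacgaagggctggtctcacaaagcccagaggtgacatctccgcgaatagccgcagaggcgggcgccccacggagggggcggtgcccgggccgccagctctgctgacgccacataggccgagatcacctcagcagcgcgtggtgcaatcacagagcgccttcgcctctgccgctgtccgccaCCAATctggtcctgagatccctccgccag
Sc5d: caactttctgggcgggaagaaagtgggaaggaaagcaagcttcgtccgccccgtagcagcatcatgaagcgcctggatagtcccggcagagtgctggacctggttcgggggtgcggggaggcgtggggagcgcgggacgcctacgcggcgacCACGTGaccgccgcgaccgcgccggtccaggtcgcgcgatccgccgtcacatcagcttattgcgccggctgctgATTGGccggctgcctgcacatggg
Srebf2: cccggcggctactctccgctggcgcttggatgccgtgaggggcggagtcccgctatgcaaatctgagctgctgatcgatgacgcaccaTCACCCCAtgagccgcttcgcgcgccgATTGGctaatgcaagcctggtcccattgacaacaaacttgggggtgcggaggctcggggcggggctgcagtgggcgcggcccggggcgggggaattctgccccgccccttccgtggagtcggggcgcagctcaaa
Idi1: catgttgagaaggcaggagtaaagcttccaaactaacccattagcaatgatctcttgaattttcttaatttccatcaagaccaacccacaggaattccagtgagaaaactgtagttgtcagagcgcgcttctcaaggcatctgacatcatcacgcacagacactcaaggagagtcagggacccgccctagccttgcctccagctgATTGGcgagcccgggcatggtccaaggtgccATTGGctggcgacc

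Of the 6 windows, on either strand, 1 held TCACNCCAC, that of Hmgcs1, where it begins 137 bases before the start. The motif occurred in 1.24% of 32851 RefSeq promoter windows of the same length. The shorter TCACNCCA, which lies within the longer motif and was chosen after the sequences were seen, was held by Hmgcs1 and Srebf2, in Srebf2 162 bases before the start, and by 4.36% of all windows. CCAAT, the box of NF-Y, a factor known to act beside SREBP2, was found in all 6 windows and in 37.4% of all windows. In the printed stretches it begins 29 bases before the start in Cyp51, 24 in Sc5d, 135 in Srebf2, 45 and 14 in Idi1, and 237, 176 and 45 in Hmgcs1. GGGCGG, the box of Sp1, which is not set in capitals, was in all 6 windows and in 35.7% of all. CACGTG was held by Sc5d and Insig1 and by 7.15% of all windows. The windows of Cyp51 and Sc5d, which were 2-fold higher at 2 h, and that of Idi1, which was not, held neither form of the sterol element; that says only that these letters are not in these stretches.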

How the data were processed

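Per the authors' deposited table, values are linear intensity per probe set, for 22690 probe sets (64 controls) on 3 arrays; per the labels' protocols, the target was made from 5 µg of total RNA by a modified Affymetrix procedure. How arrays were scanned and normalized is not given in the sources used here. Since the deposited 2% trimmed means were equal (150.05 on each array), a change in total mRNA cannot be seen.

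Controls were removed and each array was rescaled to one 2% trimmed mean. The floor was the 40th percentile of the scaled values (34.96); genes under it on both arrays of a comparison have no fold, and under it on 1 array only a bound. Of the probe sets, 20393 had 1 gene, 691 several and 1606 none listed. Of those with 1 gene, 20364 probe sets had a gene identifier that matched RefSeq (GRCm38.p6). The probe set with the highest mean log2 signal stood for a gene. Named were all members, list genes at least 1.5-fold apart, further list genes picked as examples with their values in view, Tnf, and the 5 genes nearest to Hmgcs1; the same rule for Insig1 could not be run. Alternatives covered scaling, floor, a pseudocount of 32, probe set choice and folds of 1.5 and 3. The counting was run on simulated data with noise smaller than the SD between probe sets and no spread between cultures. It checks the code and not the 2-fold calls. The members and lists were chosen with earlier results of these data known. Python 3.11.15, numpy 2.4.6 and pandas 2.3.3 were used.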

Additional observations from a re-analysis of the deposited data

Results flagged for a closer look

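Both genes here had log2 differences from 0 h of opposite sign at 2 h and 12 h, each past the SD between probe sets of 0.32 at 2 h and 0.34 at 12 h, though the 12 h value of Mvk passed it barely; that difference was not tested, since each time had 1 array. Stard4 stood at 0.35 at 2 h and -0.52 at 12 h. With the median over probe sets its 12 h value was -0.22, and with the pseudocount its 2 h value was 0.31, both within the SD. Mvk stood at -0.56 at 2 h, a bound since its 2 h signal was under the floor, and at 0.34 at 12 h, and its other probe set was above the floor at 2 h alone. With the median over probe sets its 2 h value was -0.20, and with the pseudocount its 12 h value was 0.22, both within the SD.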

How the results depend on the processing

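Over scaling, floor, pseudocount and probe set choice, the member medians and the cholesterol enzyme medians moved by less than the SD between probe sets in each of the 8 alternatives. The member median ranged from 0.35 to 0.56 at 2 h against 0 h, from -0.06 to 0.02 at 12 h against 0 h and from -0.52 to -0.39 at 12 h against 2 h. The count of members at least 2-fold higher at 2 h was 3; it was 1 with the median over probe sets, where Hmgcs1 remained, 2 with the pseudocount, where Cyp51 was under 2-fold, and 0 with a fold of 3. Of 168 single member values, 2 moved by more than that SD, both for Sc5d with the median over probe sets. Hmgcs1 was 2-fold higher at 2 h in 8 of 8 alternatives, Sc5d in 7 and Cyp51 in 6, though the other floors could not change these values. Leaving out suffixed probe sets could not change those of Sc5d and Cyp51, and leaving out the rescaling could hardly change any. Among the other named genes 25 of 649 values moved, and 4 of 72 medians of the other lists, all 4 of the oxysterol list. No paired analysis was possible because each time had 1 array. Signals near the floor, as for the dimmer probe set of Sc5d and the dimmest of Fdft1, limit what those probe sets can show, and the number of arrays limits every value.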
